A study of Rattus norvegicus with 12 samples.

Results

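The 74 genes described here, of 32622 gene identifiers in the table, stood low in induced cells of rats after 14 days of hindlimb unloading. The members were selected on measured levels: a gene was taken if its level at day 3 of induction in 14-day cells was at most 0.55 of that in control cells and at most 0.55 of that in 7-day cells. It also had to reach 5 CPM (counts per 1000000 counts of the library) in control cells at day 3, to change between day 0 and day 3 in control cells by a ratio between 0.25 and 4, and to keep a ratio above 0.6 between 14-day and control cells at day 0. Every ratio was taken between means of 2 libraries after adding 0.5 CPM. The selection thus used measured values of 5 of the 6 groups, and the ratios it set are given below as a description with no test. The 7-day libraries at day 0 entered none of the conditions.

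The libraries hold poly(A) RNA of primary fibro-adipogenic progenitors cultured from rat (Rattus norvegicus) soleus. There were 6 groups of 2 libraries: cells of control animals, of animals suspended by the hind legs for 7 days and of animals suspended for 14 days, each at day 3 of adipogenic induction and at day 0. All groups shared the culture medium, and the induction medium added insulin, dexamethasone and 3-isobutyl-1-methylxanthine. Without induction there were no day 3 libraries, so induction and time in culture cannot be told apart between the days. The labels number the replicates but name no animal or culture for each, so the p-values speak of the spread of library pairs, and that spread may be technical.

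Fibro-adipogenic progenitors are mesenchymal cells that lie between muscle fibres and can become fat cells or matrix-producing fibroblasts. The soleus is a postural muscle that wastes when the hind legs bear no weight. In the induction medium dexamethasone activates the glucocorticoid receptor, methylxanthine slows the breakdown of cyclic AMP, and insulin acts on growth and lipid storage. The table names genes by Ensembl identifier, and none of the 74 members could be paired with a gene name in the annotation table used (0 of 32622 identifiers matched). The members are therefore described by their levels, without functions, and the labelled cell type could not be checked against its markers. In bulk RNA, fewer cells that express a gene and less RNA per cell cannot be told apart.

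Libraries held 15105521 to 21484885 counts. Of the counts between 1 and 20, 68.3% to 70.6% were even numbers, so both reads of a fragment may have been counted, and a count may stand for fewer fragments. Between the replicates of a group the chi-square was 2.72 to 7.70 per degree of freedom over genes with a count of at least 40 in the pair. Sampling alone would give about 1, or about 2 if every fragment were counted by both reads, so the lowest values may be close to sampling noise. The lowest count of any member in any library was 15. All 74 members passed the filter on low counts and were among the 13215 genes tested.

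Members differed widely in level. In control cells at day 3 their means ran from 5.44 to 650.5 CPM with a median of 20.8 CPM. Of the 74, 18 stood under 10 CPM, 37 between 10 and 30 CPM, 16 between 30 and 100 CPM and 3 above 100 CPM. These 3 carried 43.8% of the summed level of the members in control cells at day 3.

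Most members stood at a little under 0.5 of the control level in 14-day cells at day 3, and none was silent. The ratio of 14-day to control cells at day 3 had a median of 0.467 and ran from 0.129 to 0.538. It was at most 0.3 in 5 members, between 0.3 and 0.4 in 9, between 0.4 and 0.5 in 38 and above 0.5 in 22. The ratio of 14-day to 7-day cells had a median of 0.487 and ran from 0.253 to 0.549. Both 14-day libraries lay below both control libraries in 74 of 74 members, where this held for 48.2% of the 9731 genes with at least 5 CPM in control cells at day 3. They lay below both 7-day libraries in 74 of 74 members too, against 45.7% of the same genes. Both counts follow from the selection.

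The edges of the selection were not gaps. The 3 members nearest to the limit had ratios to control of 0.535, 0.537 and 0.538, and the nearest genes that met every other condition had 0.554, 0.557 and 0.557. Against 7-day cells the nearest members had 0.545, 0.546 and 0.549 and the nearest other genes 0.551, 0.553 and 0.554. On libraries scaled by TMM (the trimmed mean of M-values, used in the tests below), 14-day cells at day 3 stood higher relative to both other treatments, and 47 genes met the conditions, 46 of them members.

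The members together took 0.294% ± 0.00168 of all counts in control cells at day 3, 0.279% ± 0.0133 in 7-day cells and 0.134% ± 0.00687 in 14-day cells (SD, n = 2 each). At day 0 they took 0.211% ± 0.0156 in control cells, 0.284% ± 0.0127 in 7-day cells and 0.213% ± 0.000449 in 14-day cells (SD, n = 2 each). The median member stood at 19.97 ± 0.288 CPM in control cells at day 3, 17.2 ± 0.0995 CPM in 7-day cells and 7.84 ± 0.595 CPM in 14-day cells. At day 0 it stood at 17.1 ± 0.969 CPM in control cells, 29.1 ± 1.29 CPM in 7-day cells and 19.7 ± 0.748 CPM in 14-day cells (SD, n = 2 each). The highest group was thus not an induced one for the typical member: 56 of the 74 had their highest mean in 7-day cells at day 0, and 67 had their lowest in 14-day cells at day 3. The selection put 14-day cells below both other treatments at day 3, so the second count is largely built in. Neither count was made over all genes, so they are a description.

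**Figure D1:**
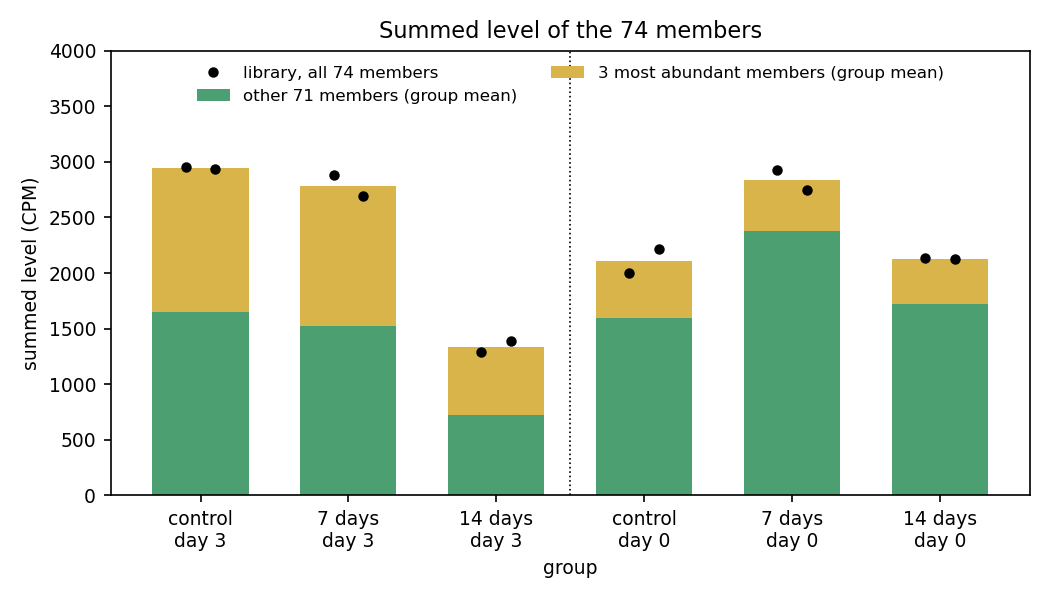
Summed level of the 74 members in CPM (vertical axis, from 0) in each group, day 3 on the left and day 0 on the right. Bars are group means, split into the 3 most abundant members and the other 71, and points are libraries. The 14-day libraries at day 3, at 1290 and 1387 CPM, were the lowest, as the selection favours. Among the other 71 members the 7-day cells at day 0 had the highest bar, at 2380 CPM.

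The sum hides a difference in makeup between the days. The 3 most abundant members summed to 1291 ± 10.5 CPM in control cells, 1259 ± 86.2 CPM in 7-day cells and 613 ± 59.5 CPM in 14-day cells at day 3, and to 514 ± 90.8, 459 ± 25.3 and 406 ± 16.0 CPM in control, 7-day and 14-day cells at day 0. The other 71 summed to 1653 ± 6.28 CPM in control cells, 1527 ± 46.7 CPM in 7-day cells and 725 ± 9.21 CPM in 14-day cells at day 3. At day 0 these 71 summed to 1595 ± 65.6 CPM in control cells, 2380 ± 102 CPM in 7-day cells and 1723 ± 11.5 CPM in 14-day cells (SD, n = 2 for each sum). The sum of the 3 most abundant members was thus higher at day 3 than at day 0 in every treatment. The third of them alone was not, with means in 14-day cells of 121 CPM at day 3 and 126 CPM at day 0. The sum of the other 71 in control cells was nearly the same at both days.

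**Figure D2:**
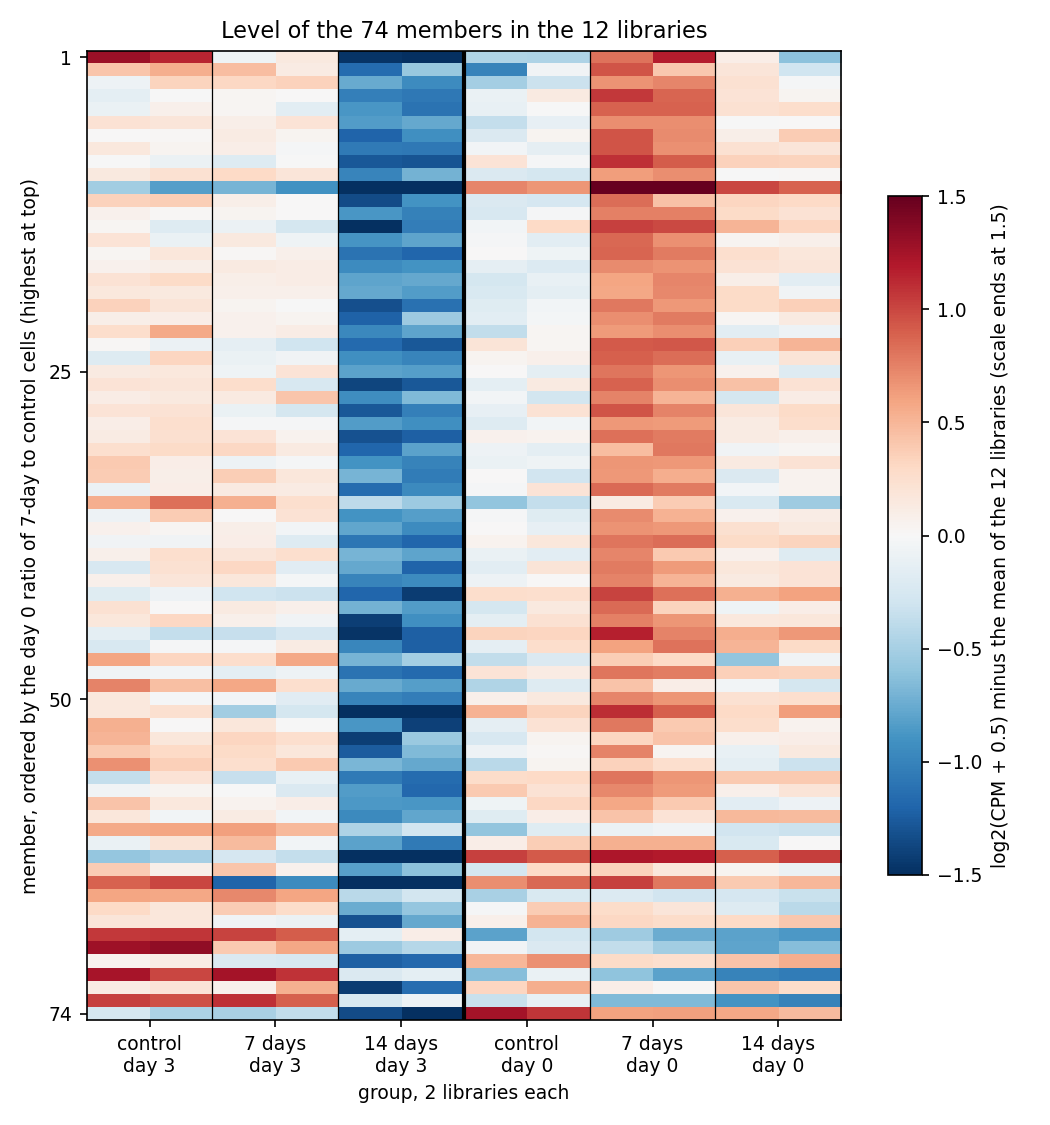
Level of each member (rows, ordered by the ratio of 7-day to control cells at day 0, highest at the top) in each of the 12 libraries (columns, 2 per group), as log2(CPM + 0.5) minus the mean of the 12 libraries. By group mean the 14-day cells at day 3 (blue) were lowest in 67 of the 74 members, and the 7-day cells at day 0 (red) were highest in 56. The selection set the 14-day cells below both other treatments at day 3.

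The first comparison set 7-day against control cells before induction. Most members were higher in the 7-day cells. Of the 74, 51 were higher in 7-day than in control cells at day 0, 4 were lower and 19 did not pass (quasi-likelihood test of edgeR, two-sided, false discovery rate of 0.05 over all genes tested), where 11.7% of all genes tested were higher and 11.3% lower. The median log2 difference was 0.67, or 1.59-fold, against -0.00 over all genes, and the middle 50% of the members lay between 0.42 and 0.82. Both 7-day libraries lay above both control libraries in 62 members, and this held for 34.8% of the genes with at least 5 CPM in control cells at day 3. The limit against 7-day cells at day 3 favours genes high in 7-day cells, which may carry over to day 0. The control libraries at day 0 also entered the selection, so this count is not free of the choice. The condition on 14-day cells at day 0 favours genes low in these libraries, while the limit on the change of control cells kept out 25 genes that met every other condition, all of them higher at day 3 than at day 0. Without the first control library at day 0, 42 members were higher. Scaled by total count, 57 members were higher and 3 lower, and of all calls over all genes 62.8% were then higher, against 50.8% with TMM.

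The largest rise before induction among the members was that of ENSRNOG00000017854. At day 0 it had 6.08 and 7.97 CPM in 7-day cells, against 2.24 and 2.23 CPM in control cells (log2 difference 1.601, SE 0.28, adjusted p = 2.38e-05), and 3.51 and 1.95 CPM in 14-day cells. The 7-day libraries did not overlap those of either other group. At day 3 it had 8.61 and 7.79 CPM in control cells, 3.08 and 3.66 CPM in 7-day cells, and 0.851 and 0.753 CPM in 14-day cells, so its 3 treatments did not overlap. Its day 3 order was the reverse of the length of unloading, while at day 0 the 7-day cells stood highest. The 14-day libraries at day 3 held counts of 16 and 15 for it, which may be fewer fragments.

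The largest fall before induction was that of ENSRNOG00000014721. At day 0 it had 44.2 and 44.6 CPM in 7-day cells, against 69.6 and 61.4 CPM in control cells (log2 difference -0.61, SE 0.10, adjusted p = 7.95e-06), and 43.7 and 40.5 CPM in 14-day cells. Both unloaded groups lay below control and beside each other. At day 3 it had 24.1 and 20.7 CPM in control cells, 20.5 and 22.3 CPM in 7-day cells and 11.1 and 8.94 CPM in 14-day cells. Control and 7-day libraries overlapped at day 3, and the 14-day libraries lay below both.

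Before induction 14-day cells stood below 7-day cells in most members. Of the 74 members, 44 were lower in 14-day than in 7-day cells, 1 was higher and 29 did not pass, where 6.26% of all genes tested were lower and 5.47% higher (edgeR, false discovery rate of 0.05). The median log2 difference was -0.46, against -0.00 over all genes. The condition on 14-day cells at day 0 kept out genes low there, which worked against this direction. The limit against 7-day cells at day 3 favours genes lower in 14-day than in 7-day cells, which may carry over to day 0. The ratio of 14-day to 7-day cells at day 0 had a median of 0.632 in the 32 genes that missed only the limit against control. It was 0.920 in the 167 genes that missed only the limit against 7-day cells. The count is thus not free of the choice. Fewer members passed if either 14-day library or the first 7-day library at day 0 was left out, which leaves 1 library in its group. The median log2 difference was -0.45 without the first 14-day library and -0.44 without the second. It was -0.40 without the first 7-day library and -0.51 without the second. Scaled by total count, where the median of all genes was -0.09, 55 members were lower and 1 higher, and of all calls over all genes 20.7% were higher, against 46.6% with TMM. Of the 51 members that were higher in 7-day than in control cells, 39 were among those lower in 14-day than in 7-day cells, but both comparisons use the same 7-day libraries with opposite sign, so the overlap is no separate result. Against control cells, a ratio that the selection bounded from below, the 14-day cells at day 0 had a median ratio of 1.10 and a range of 0.604 to 1.46.

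**Figure D3:**
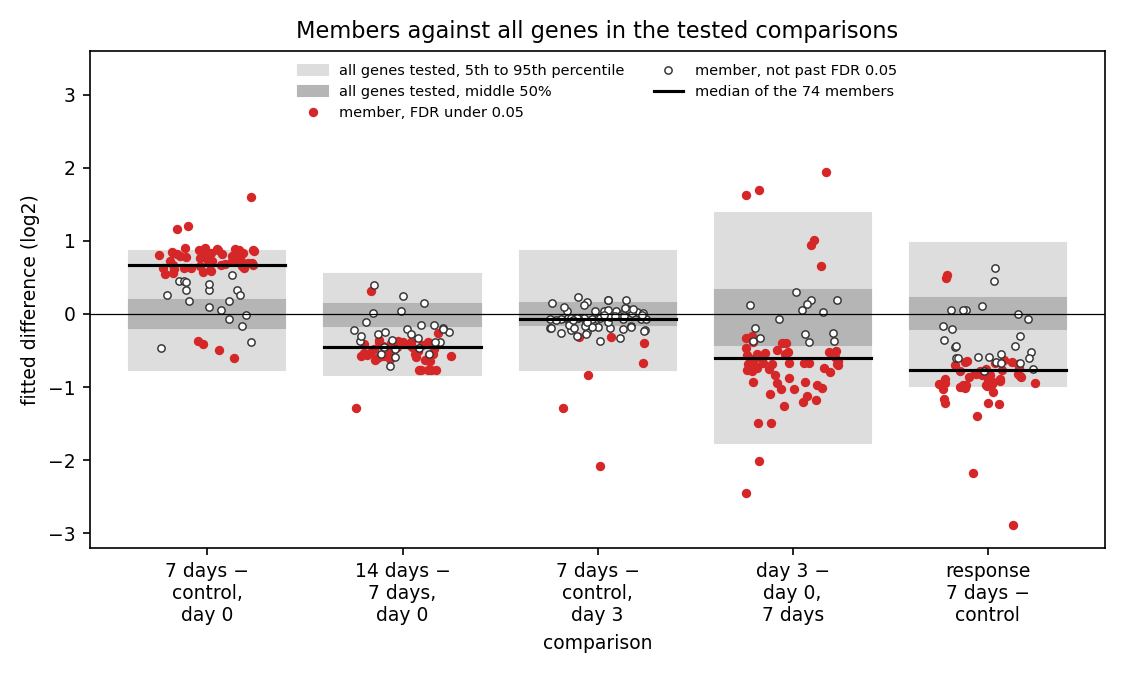
Fitted log2 differences (vertical axis) of the 74 members in the 5 tested comparisons. Points are members, filled where the adjusted p was under 0.05, black bars are the members' medians, and grey boxes show the middle 50% and the 5th to 95th percentile of all genes tested. Member medians were 0.67 for 7-day minus control cells at day 0, -0.46 for 14-day minus 7-day cells at day 0, -0.07 for 7-day minus control cells at day 3, -0.60 for day 3 minus day 0 after 7 days and -0.76 for the difference of the responses.

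At day 3 the 7-day cells had a median ratio to control cells of 0.961 over the members. Both groups entered the selection, which required each to exceed 14-day cells, so the calls of this fit are given as a description and support nothing. None of the 74 was higher in 7-day than in control cells, 7 were lower and 67 did not pass, where 6.75% of all genes tested were higher and 7.43% lower (edgeR, false discovery rate of 0.05). At an unadjusted p under 0.05 there were 1 higher and 10 lower, and the DESeq2 Wald test called 0 higher and 5 lower. The middle 50% of the ratios lay between 0.882 and 1.01. The median log2 difference was -0.07, and it was -0.14 without the first 7-day library and -0.11 without the second control library of day 3. The number lower was 4 without the first control library or without the second 7-day library of day 3. The share called lower, 9.46%, was near that of all genes and is no result about the members. The absence of higher calls is no result either, since both groups entered the selection.

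In some members the 7-day cells also stood below control cells at day 3. Over the 7 called lower, the ratios of 7-day to control cells at day 3 were 0.248, 0.445, 0.571, 0.665, 0.765, 0.811 and 0.812, and the first 2 of these were at or under 0.55. The lowest belonged to ENSRNOG00000012879, which was also the member with the lowest ratio of 14-day to control cells at day 3, at 0.129. It had 36.5 and 39.8 CPM in control cells at day 3, 8.25 and 9.89 CPM in 7-day cells, and 4.36 and 4.57 CPM in 14-day cells. Its 3 treatments did not overlap at day 3. At day 0 it had 32.0 and 36.0 CPM in control cells, 40.5 and 34.3 CPM in 7-day cells and 25.9 and 27.9 CPM in 14-day cells, so that control and 7-day libraries overlapped before induction.

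The next members in that order showed other shapes. Among members with at least 20 CPM in control cells at day 3, the second lowest ratio to control was 0.290. That gene had 28.1 and 29.4 CPM in control cells, 15.1 and 17.3 CPM in 7-day cells and 7.66 and 8.33 CPM in 14-day cells at day 3, a stepwise order without overlap. The third lowest ratio was 0.298, in a gene with 24.6 and 26.0 CPM in control cells, 31.0 and 28.8 CPM in 7-day cells and 6.97 and 7.43 CPM in 14-day cells. Here 7-day cells stood above control cells, and at day 0 all libraries of the 3 treatments held between 69.3 and 86.3 CPM. The fourth had a ratio of 0.349 and the fifth 0.357, and both stood highest in 7-day cells at day 0, at 33.1 and 28.9 CPM and at 31.0 and 28.0 CPM.

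**Figure D4:**
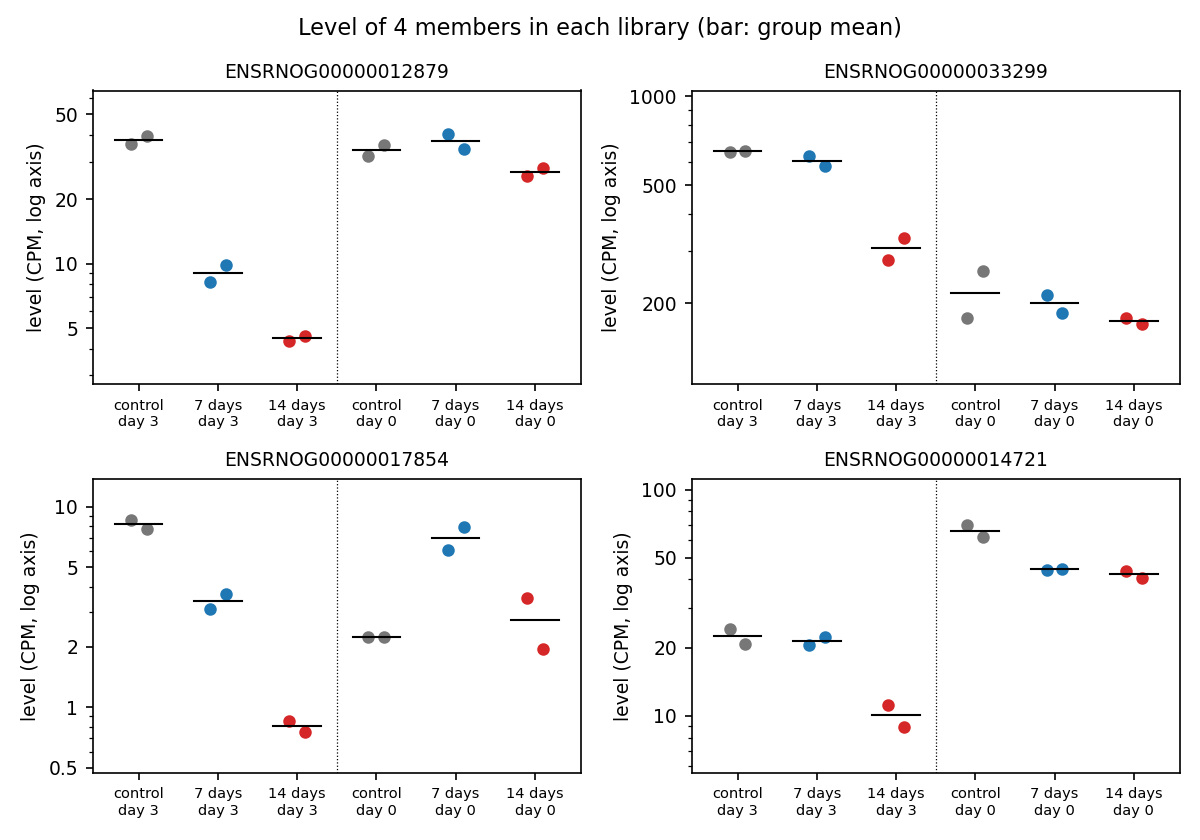
Level of 4 members in each library (CPM, log axis), with day 3 on the left and day 0 on the right of each panel, and bars for group means. In each panel the 14-day libraries at day 3 lie below the other day 3 libraries. The 14-day means at day 3 were 4.46 CPM for ENSRNOG00000012879, 306 CPM for ENSRNOG00000033299, 0.802 CPM for ENSRNOG00000017854 and 10.0 CPM for ENSRNOG00000014721.

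The next comparison set day 3 against day 0 within 7-day cells. Of the 74 members, 53 fell, 6 rose and 15 did not pass, where 26.9% of all genes tested fell and 24.8% rose (edgeR, false discovery rate of 0.05). The median log2 difference was -0.60, against -0.01 over all genes. The 7-day libraries at day 3 entered the selection by a condition that favours genes high in them, which works against a fall. Other conditions kept out genes that mostly rose. The ratio of day 3 to day 0 in 7-day cells had a median of 2.37 in the 13 genes that missed only the condition on 14-day cells at day 0. It was 2.82 in the 25 genes that missed only the limits on the change of control cells. The number that fell is thus not free of the choice. Of the 51 members higher in 7-day than in control cells before induction, 45 were among those that fell, but both comparisons use the 7-day libraries at day 0 with opposite sign. In most of these selected genes a lower level at day 3 than at day 0 was present in 7-day cells as well. In 14-day cells, where the selection set the day 3 level, the ratio of day 3 to day 0 had a median of 0.46 and was below 1 in 70 members. In control cells, where the selection kept it between 0.25 and 4, that ratio had a median of 1.13 and was above 1 in 52 members.

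The change between the days was also set against that of control cells, whose ratio the selection had bounded. The difference, day 3 minus day 0 in 7-day cells minus the same in control cells, was negative in 45 members and positive in 2 by the edgeR test, while 27 did not pass, where 5.68% of all genes tested were negative and 4.7% positive. Its median was -0.76 on the log2 scale, against 0.01 over all genes. The 7-day libraries at day 3 and the control libraries of both days entered the selection, so these counts are not free of the choice. Of the 45 members, 44 were among those higher in 7-day than in control cells at day 0. That difference enters here with its sign turned, so the 45 are no separate result. The number positive was 1 without the second control library or without the second 7-day library of day 3.

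Members with a low ratio of day 3 to day 0 in 14-day cells mostly had a low one in 7-day cells. Over 74 members the log2 ratios of day 3 to day 0 in 14-day and in 7-day cells, which share no library, had a Pearson correlation of 0.89 and a Spearman correlation of 0.79. Over the 68 members without the 6 that rose, these were 0.80 and 0.73. The members are not independent of each other, and the selection tied the day 3 levels of 14-day and 7-day cells by a limit on their ratio. The same correlation over all genes was not computed, so these values are not shown to be particular to the members. Another pair of ratios was 14-day to control cells at day 3 and 7-day to control cells at day 0. Their Pearson correlation was 0.05 and their Spearman correlation 0.10 over the 74 members. The selection capped the first of these ratios, and its quartiles were 0.415 and 0.506. A ratio cut to a narrow range can give a low correlation, so these values cannot decide whether the pair is related.

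**Figure D5:**
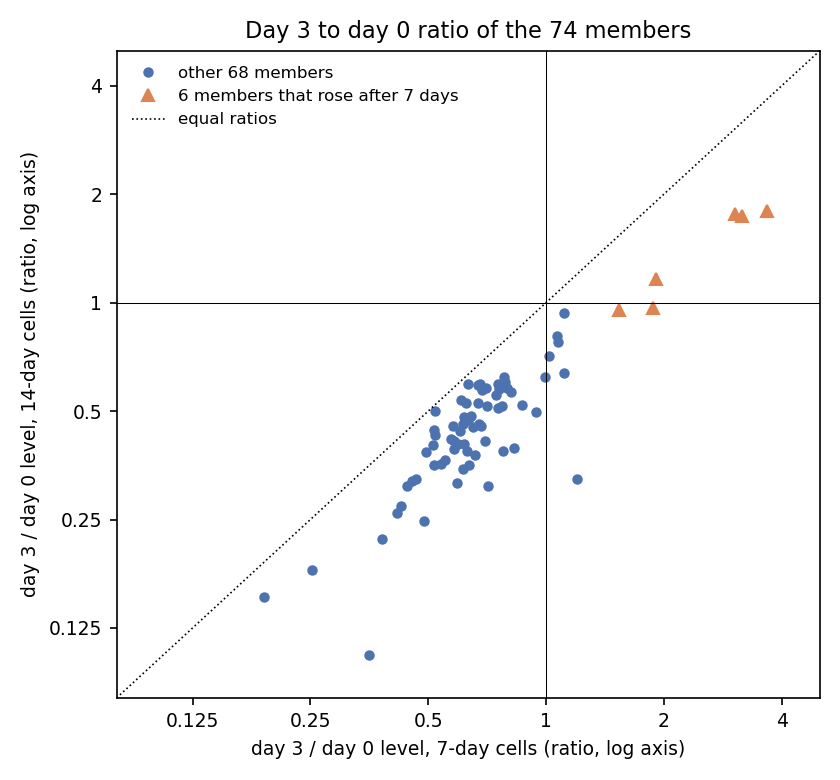
Ratio of day 3 to day 0 level in 14-day cells (vertical, log axis) against that in 7-day cells (horizontal, log axis) for each member, with the line of equal ratios. Triangles are the 6 members that rose in 7-day cells. The points lie below the line, as the selection favours, with a median ratio of 0.46 in 14-day cells and 0.655 in 7-day cells.

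The 6 members that rose in 7-day cells had another pattern than the rest. Their ratio of day 3 to day 0 was 1.54 to 3.67 in 7-day cells, 1.92 to 3.00 in control cells and 0.956 to 1.80 in 14-day cells. In 14-day cells they were thus not below their own day 0 level by more than a few percent, and 4 of the 6 had a ratio above 1. Among the other 68 the ratio in 14-day cells was 0.105 to 0.936. The same 6 members were those whose log2 levels over the 12 libraries correlated at r under 0.5 with the mean of the other members. These 6 included the 3 most abundant members. The median of that correlation over the 74 was 0.93, and 59 members were above 0.8, but 10 of the 12 libraries had chosen the members for a shared pattern, so a high value is built in.

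ENSRNOG00000033299, the most abundant member, was one of these 6. At day 3 it had 648 and 653 CPM in control cells, 628 and 583 CPM in 7-day cells and 280 and 332 CPM in 14-day cells. At day 0 it had 178 and 256 CPM in control cells, 213 and 186 CPM in 7-day cells and 178 and 170 CPM in 14-day cells. At day 3 the 14-day libraries lay below all others, and at day 0 the ranges of 7-day and control cells overlapped, with the 14-day libraries lowest. In 7-day cells its day 3 level was above its day 0 level by 1.63 on the log2 scale (SE 0.09, adjusted p = 7.09e-18), and the difference of 7-day from control cells did not pass at day 0 (log2 difference -0.17, SE 0.09, adjusted p = 0.194). Of the second most abundant member the levels at day 3 were 418 and 399 CPM in control cells, 439 and 383 CPM in 7-day cells and 175 and 196 CPM in 14-day cells. At day 0 that gene stood in the order of unloading, at 163 and 191 CPM in control cells, 130 and 129 CPM in 7-day cells and 110 and 103 CPM in 14-day cells. Its ratio of 14-day to control cells at day 0 was 0.604, next to the limit of 0.6.

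The members were set beside the 167 genes that met every condition but the one against 7-day cells. In these the ratio of 14-day to control cells at day 3 had a median of 0.487, close to the 0.467 of the members, and 7-day cells at day 3 had a median ratio to control of 0.621, against 0.961 in the members. Both follow from the conditions that define the sets. At day 0, 36 of the 167 were higher in 7-day than in control cells and 28 lower. Of the 74 members, 51 were higher and 4 lower. Of all genes tested, 11.7% were higher and 11.3% lower. The 7-day libraries at day 0 chose neither set, but the condition that parts the sets favours genes high in 7-day cells at day 3. This may carry over to day 0. In the 32 genes that missed only the limit against control at day 3, the ratio of 7-day to control cells at day 0 had a median of 1.76. The median log2 differences at day 0 were 0.67 in the members and -0.04 in the 167 genes. The difference between the sets was not tested.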

How the data were processed

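The deposited table holds raw counts per Ensembl rat gene identifier for 32622 identifiers, with 1 column for each of 12 libraries. Per the submitters' processing notes, the tools were STAR 2.7, featureCounts 1.6.4, FastQC 0.11.9 and DESeq2, with Rnor_6.0 as build. The handling of strand in counting is not stated in these sources, so reads of overlapping genes and near-identical copies may be split in unknown ways.

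Levels are CPM of the total count. Differences come from 1 fit of 6 group means to 12 libraries with the quasi-likelihood test of edgeR 4.0.16 (R 4.3.3), with filterByExpr, TMM scaling, 6 residual degrees of freedom, two-sided tests and Benjamini-Hochberg adjustment over 13215 genes at 0.05. The fit was tested on simulated data. DESeq2 1.42.0, other scalings, filters and left-out libraries were alternatives.

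The members and lists were chosen with earlier results of these data known. Without gene names the pathway, marker and promoter lists were not used. The naming rule was cut to 4 identifiers: the lowest ratio to control at day 3 at 20 CPM or more, the highest level there, and the largest rise and fall in 7-day cells at day 0. The next members of the rule are given by rank, and other members were described after their values were seen.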

Additional observations from a re-analysis of the deposited data

Results flagged for a closer look

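These results stand here because the response to induction, day 3 minus day 0, was not the same in 7-day as in control cells (edgeR, interaction term). The response of control cells had been limited by the selection to a ratio between 0.25 and 4. Other conditions favour genes whose control levels are high at day 3 and low at day 0, and so a lower response after 7 days. The calls and p-values given here are therefore not free of the choice. The response was lower after 7 days than in control cells in 45 of the 74 members and higher in 2, where 5.68% of all genes tested were lower and 4.7% higher at a false discovery rate of 0.05. Of the 45, 44 were higher in 7-day than in control cells at day 0, a difference that the interaction contains with its sign turned.

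ENSRNOG00000017854 had a difference between the responses of -2.89 on the log2 scale (SE 0.38, adjusted p = 5.03e-07) and ENSRNOG00000012879 one of -2.17 (SE 0.17, adjusted p = 2.52e-12). Of ENSRNOG00000014721 the response after 7 days was less negative, with a difference of 0.54 (SE 0.15, adjusted p = 0.0151), and it lost the threshold without the first control library at day 0 (0.43, adjusted p = 0.121), the second control library at day 3 (0.43, adjusted p = 0.134) or the second 7-day library at day 3 (0.45, adjusted p = 0.0966). The number higher was 1 without either of these day 3 libraries. With 2 libraries per group no library could be judged to stand apart from its group.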

How the results depend on the processing

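The membership depends on the scaling and the limits. With CPM on TMM-scaled libraries or on DESeq2 size factors 47 genes met the conditions, 46 of them members. Total-count scaling shifts 14-day cells at day 3 by -0.105 (log2) against control and -0.113 against 7-day cells, relative to TMM. An offset of 2 CPM gave 41 genes, a ratio of 0.5 gave 33 and a ratio of 0.6 gave 132. Leaving out each library gave 67 to 90 genes. Among the 47 genes of the TMM selection, 33 were higher and 5 lower in 7-day than in control cells at day 0. Of all genes tested, 11.7% were higher there and 11.3% lower. For the 74 members, all counts stayed within 1.5 times the reported ones under 8 other settings of scaling, filter, test, block, counting unit and libraries in the fit. The median difference of 14-day from 7-day cells at day 0 moved to -0.54 with scaling to the total count, chosen after seeing the data. Leaving out single libraries gave 24 to 48 members lower and 0 to 1 higher in that comparison, 4 to 7 lower than control after 7 days at day 3 (median -0.141 to -0.051), and 1 to 2 with a larger response. Replicate numbers did not pair the libraries (r from -0.128 to 0.0749 over 15 pairs of groups). With a replicate block 50 members were higher after 7 days than control at day 0 and 44 were lower after 14 than 7 days. Over all 13215 genes tested, that fit called 1470 higher and 778 lower in these 2 comparisons. What depth limits was not tested beyond a fit on counts divided by 2. That fit called 54 members higher in 7-day than in control cells at day 0, and 1538 of all 12340 genes tested.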

Other observations

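In the 32 genes that missed only the limit against control at day 3, the ratio of 7-day to control cells at day 0 had a median of 1.76 and was above 1 in 31. In the 13 genes that missed only the condition on 14-day cells at day 0, that ratio had a median of 0.556 and was below 1 in all 13. In the 25 genes that missed only the limits on the change of control cells, its median was at equality, with 5 ratios exactly equal, a value that the offset of 0.5 CPM gives where both levels are 0. Their ratio of 14-day to control cells at day 3 had a median of 0.0445, the lowest of these sets. These values are a description with no test.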
